A study of Mus musculus with 7 samples.

Results

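The ribosomal proteins of the cytosol were followed here in lin- bone marrow cells, from which cells bearing markers of mature blood lineages had been removed, of mice with and without HRP-2. The members were taken by symbol: every gene named Rpl or Rps followed by a number, Rpsa, and Rplp0 to Rplp2, without the S6 kinases (*Rps6k* genes), without names that mark a pseudogene (-ps), and without genes that had fewer than 10 reads over the 7 mice. Of the 25033 symbols in the files, 89 matched the pattern and 86 had enough reads. They comprised 31 proteins of the small subunit, 42 of the large subunit, the 3 proteins of the stalk (*Rplp0*, *Rplp1* and *Rplp2*), and 10 symbols that are paralogs, retrocopies or, in the case of *Rps19bp1*, a binding protein. The RNA came from 3 wild type mice (Hrp2+/+) and 4 knockout mice (Hrp2-/-) aged 6 to 8 weeks. The knockout is systemic and goes back to the line C57BL/6N-Hdgfrp2<tm1b (KOMP)Wtsi>/Tcp, in which every cell of the animal carries the altered *Hdgfl2* gene (formerly *Hdgfrp2*). The libraries were prepared from 500 ng of total RNA by priming on the poly(A) tail, so that 1 fragment near the 3′ end is read per transcript, and levels are given as CPM, the usual counts per unit of library size (reads on genes, after TMM scaling), which under this chemistry do not grow with transcript length.

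A ribosome is built from ribosomal RNA and one copy of most of its proteins, except for the stalk proteins P1 and P2, which are present in several copies. The small subunit decodes the messenger RNA, the large subunit joins the amino acids, and the stalk recruits the GTPases that drive elongation. Most of the ribosomal RNA is cut from a long precursor, listed here as *Rn45s*, that is made by RNA polymerase I in the nucleolus. Messenger RNAs for ribosomal proteins commonly start with a 5′ terminal oligopyrimidine tract, through which their translation follows mTOR activity. In the marrow, loss of one copy of single ribosomal protein genes causes Diamond-Blackfan anemia in humans, in which red cell precursors fail while other lineages are largely spared.

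The libraries held between 3525665 and 5605158 reads on genes. *Hdgfl2*, the targeted gene, had a mean of 46.1 ± 3.42 CPM in the 3 wild type mice and of 1.29 ± 0.938 CPM in the 4 knockout mice (± SD), and every knockout mouse lay below every wild type mouse (exact permutation on log2(CPM + 1), two-sided, p = 0.0286, where 35 splits allow no smaller value). Knockout mouse 3 stood apart in its sex-linked genes, with 559 reads of the Y-linked *Ddx3y* and 3 reads of *Xist*, where the other 6 mice had at most 4 reads of *Ddx3y* and 848 to 1457 of *Xist*. The labels give no sex. Markers of stem and progenitor cells were detected in every mouse (16 of 16 genes, 1163 to 1743 CPM in sum), as were those of promyelocytes (6 of 6 genes, 7296 to 10590 CPM). In knockout cells 11 of the 14 stem and progenitor genes tested had a lower fitted level and 3 a higher one. Their median log2 fold change was −0.18, and none had a call in edgeR's test. The summed level of 13 neutrophil markers was 8049 to 11200 CPM in wild type and 9135 to 25370 CPM in knockout mice, with knockout mouse 3 at the top, and all 13 of these markers had a higher fitted level in knockout cells (median log2 fold change 0.75, none with a call in edgeR's test). The 13 monocyte and macrophage genes summed to 2588 to 2754 CPM in wild type and 2754 to 3643 CPM in knockout mice. The groups did not overlap, though their nearest mice both round to 2754 CPM. Of these genes 5 were higher and 8 lower (median log2 fold change −0.018), among the former the abundant *Ly6c2* (0.34) and *Lyz2* (0.54) and among the latter the macrophage genes *C1qa* (−0.72) and *C1qc*, with means of 34.4 CPM in wild type and 17.2 CPM in knockout mice. The 14 eosinophil, basophil and mast cell genes summed to 4244 to 4686 CPM and 2901 to 3939 CPM, with no overlap. Of the 14 erythroid markers, the 4 hemoglobin genes were at 0 in every mouse. Whether these differences in marker level play a part in the values below was not tested. In bulk RNA fewer cells of a type and less RNA per cell cannot be told apart.

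Ribosomal protein genes were among the most abundant messages of these cells. With *Rn45s* left out, they made up 5 of the 10, 24 of the 50 and 41 of the 100 genes with the highest mean CPM. The median of the 83 members that passed the filter on low counts was 871 CPM, and that of all 11265 genes tested was 28.3 CPM. The levels of single members were nevertheless far apart: 38 of the 86 members had a mean above 1000 CPM, 37 lay between 100 and 1000, 5 between 10 and 100, and 6 were under 10 CPM. In the plot of all members in order of level, the levels decline slowly over most of the genes and drop from 27.7 CPM (*Rps4l*) to 4.02 CPM (*Rpl30*).

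**Figure D1:**
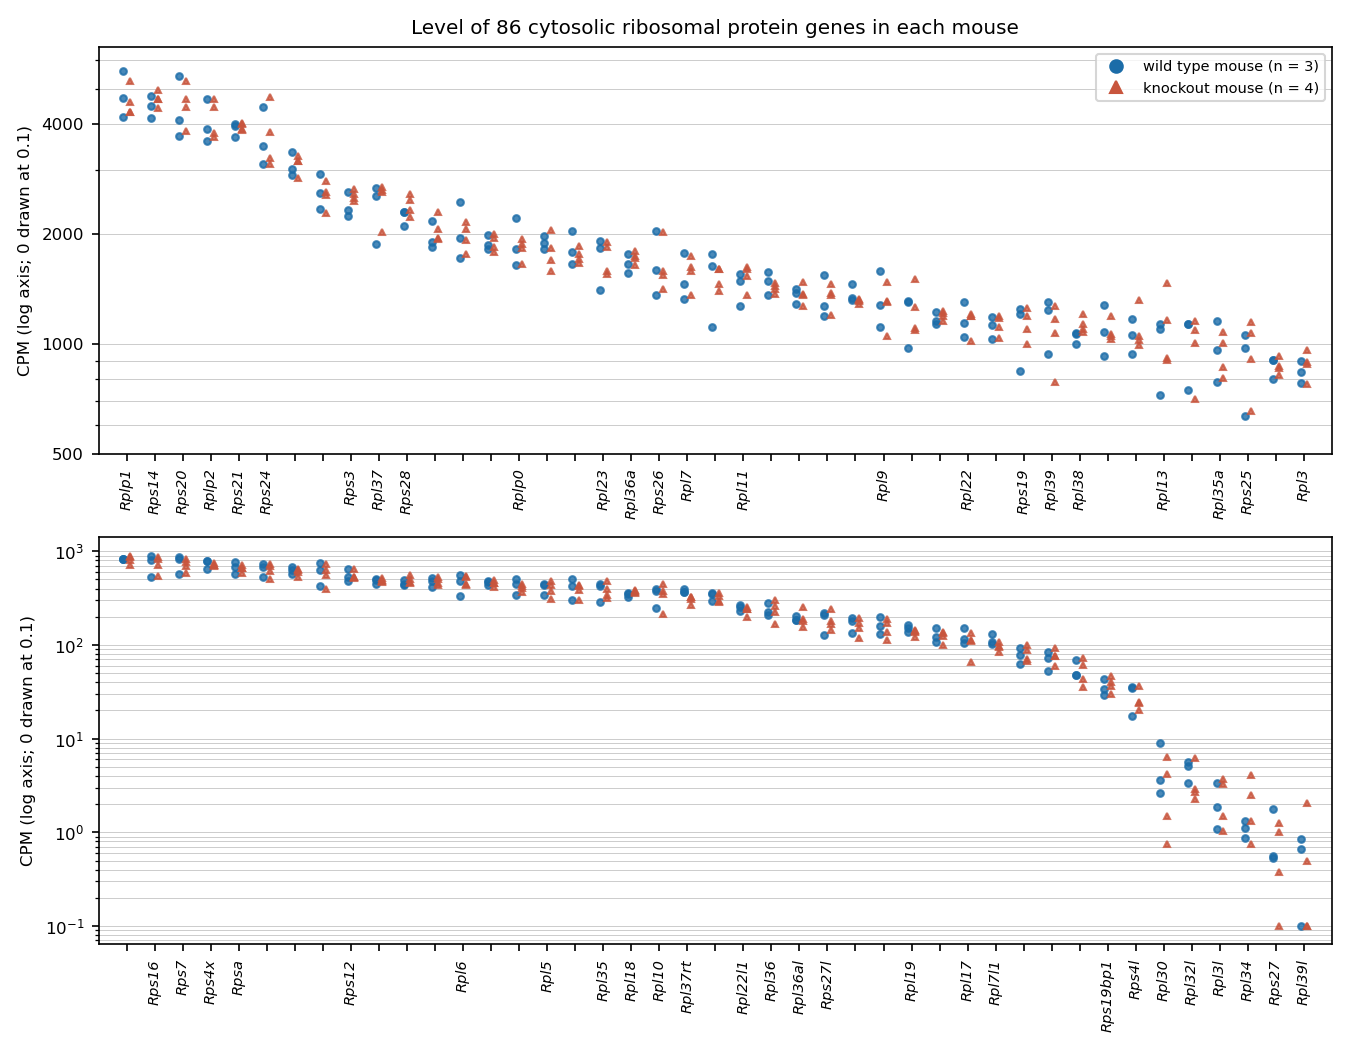
CPM of the 86 members in each mouse on a log axis, ordered by mean level from left to right and top to bottom; circles are the 3 wild type mice, triangles the 4 knockout mice, a level of 0 is drawn at 0.1, and members described in the text are labelled. *Rplp1* leads with a mean of 4707 CPM, and the last 6 genes are all under 10 CPM.

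The 5 members with the highest mean were *Rplp1*, *Rps14*, *Rps20*, *Rplp2* and *Rps21*. *Rplp1*, which encodes the stalk protein P1, was at 4715, 5587 and 4175 CPM in the wild type mice and at 5245, 4308, 4319 and 4596 CPM in the knockout mice. *Rplp2*, for its partner P2, was at 3886, 4677 and 3591 CPM and at 4674, 3791, 4446 and 3683 CPM. Both genes lay above *Rplp0*, for the protein that anchors P1 and P2 to the large subunit, which ranged from 1649 to 2218 CPM over the 7 mice. *Rps14*, a protein of the platform of the small subunit, was at 4485, 4761 and 4164 CPM in wild type and 4694, 4430, 4698 and 4950.2 CPM in knockout cells. *Rps21* had a narrow range, 3694 to 4023 CPM, and *Rps20* a wide one, 3711 to 5416 CPM. The means of *Rps14* and *Rps20*, 4597 and 4492 CPM, did not differ beyond the spread of the mice, and their order depends on the mouse.

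At the other end stood genes that encode regular subunits of the ribosome. *Rps27* had 24 reads over all mice, at most 1.76 CPM in one mouse, *Rpl34* had 56 reads, and *Rpl30* 122. *Rpl26* and the retrocopy *Rps27rt* had no read in any mouse, as had *Rpl10l*, a copy of *Rpl10* used in the testis. A count of 0 allows up to 3 reads, or 0.535 to 0.851 CPM before scaling, and this covers counting error only. *Rps27*, on chromosome 3 of GRCm38 from 90212522 to 90213651, and *Rps27rt*, on chromosome 9 from 114982366 to 114982739, have the same coding sequence over all 255 bases in the GENCODE M21 transcripts. Their paralog *Rps27l*, on chromosome 9 from 66946086 to 66949516, differs from *Rps27* at 61 of these bases and had a mean of 184 CPM. The coding sequences are shown because the copy that is distinct was counted and the identical ones were nearly absent, with capitals at the bases that differ between the lines.
*Rps27*: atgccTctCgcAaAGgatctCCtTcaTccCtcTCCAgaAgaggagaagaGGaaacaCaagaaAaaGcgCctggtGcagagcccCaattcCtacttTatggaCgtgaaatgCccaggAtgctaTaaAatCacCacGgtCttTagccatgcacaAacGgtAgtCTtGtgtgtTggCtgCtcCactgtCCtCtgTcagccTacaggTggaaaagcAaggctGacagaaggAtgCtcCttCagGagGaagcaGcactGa
*Rps27l*: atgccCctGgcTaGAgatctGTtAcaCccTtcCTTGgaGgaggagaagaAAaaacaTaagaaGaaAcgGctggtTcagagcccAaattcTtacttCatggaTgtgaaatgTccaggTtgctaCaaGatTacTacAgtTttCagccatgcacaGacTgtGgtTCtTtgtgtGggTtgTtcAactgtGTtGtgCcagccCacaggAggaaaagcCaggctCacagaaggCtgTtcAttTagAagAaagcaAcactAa
Stretches of 75 bases, the length of a read, were searched in the last 300 bases of 1 transcript per gene. At least one such stretch was also present in a transcript of another gene for 61 of the 86 members. For *Rps27* this held for 100% of the stretches, for *Rpl30* for 78.8% and for *Rpl34* for 49.1%. Over the 76 genes of the small subunit, the large subunit and the stalk, the 21 with no shared stretch had means from 405 CPM (*Rpl5*) to 4492 CPM, with a median of 1719.6 CPM. The 55 with at least one shared stretch had means from 0.781 to 4707 CPM, with a median of 861 CPM. The levels within the sharing genes were wide apart, and the 5 members shared over 100% of the stretches had means of 0.781 (*Rps27*), 345 (*Rpl10*), 556 (*Rps12*), 1301 (*Rpl9*) and 1701 CPM (*Rpl36a*). How reads that match several genes were counted is not stated, so the levels of these genes are uncertain.

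The comparison of genotypes asks whether loss of HRP-2 altered the expression of the ribosomal proteins. None of the 83 members tested passed an adjusted p-value of 0.25, the threshold of the study, in edgeR's quasi-likelihood test, where 2 of all 11265 genes did (0.0178%). DESeq2 and limma-voom also called none of the members. At an unadjusted p-value under 0.05 there was 1 member, *Rpl37rt*, against 3.63% of all genes. By sign, 41 members were higher and 42 lower in knockout cells, where 49.8% of all genes were higher. The median log2 fold change of the members was −0.0016, that of all genes −0.0014. A fold change within 0.1 on the log2 scale was found for 67 of the 83 members (80.7%), against 35.6% of all genes tested, whose levels are mostly lower. The 95% interval lay within ±0.5 for 69 members and within ±1 for 80, and its median half-width was 0.29. Without knockout mouse 3 no member was called either, and none had an unadjusted p-value under 0.05.

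**Figure D2:**
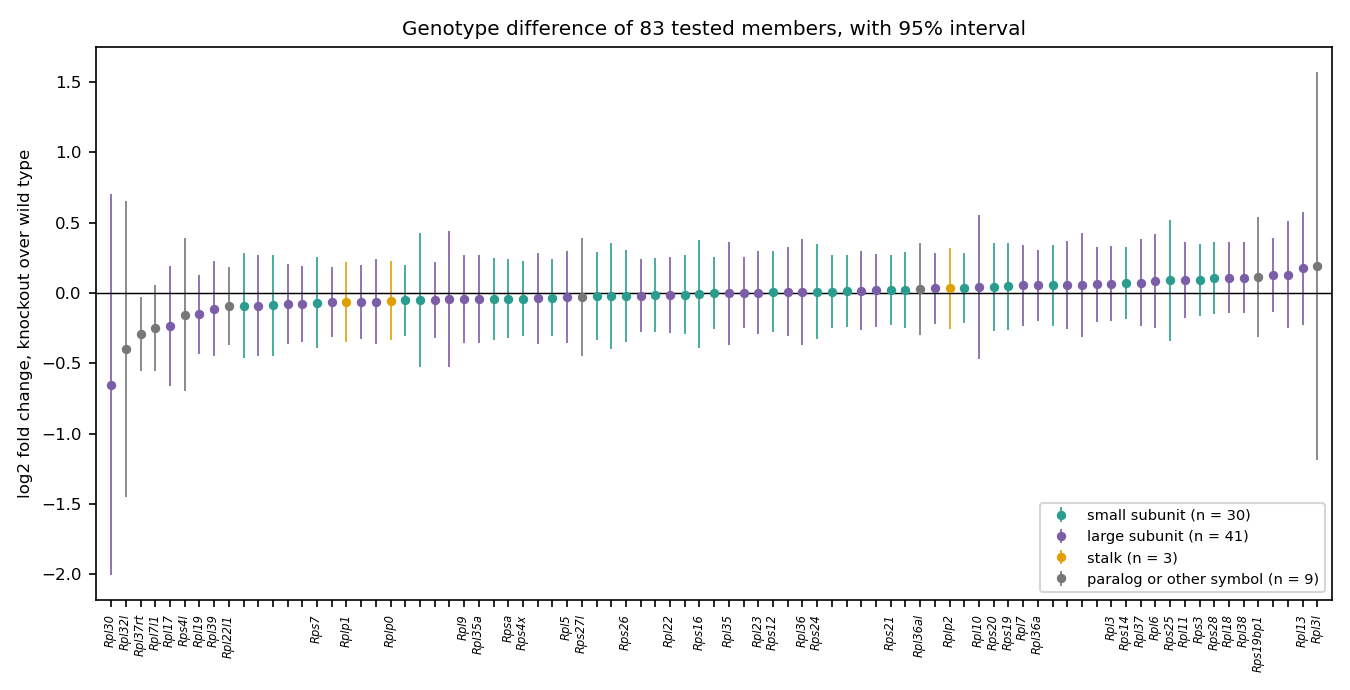
Log2 fold change (knockout over wild type) of the 83 members tested, in order of size, with the 95% interval from edgeR's fit as bars colors for the subunit, and labels for members described in the text. The interval of *Rpl37rt* is the one that leaves out 0, and the wide intervals at both ends belong to genes with few reads (*Rpl30*, *Rpl32l* and *Rpl3l*).

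The signs were mixed within each subunit. Of the 30 small subunit genes tested, 14 were higher and 16 lower, with a median of −0.0047 and a range from −0.09 to 0.11. Of the 41 large subunit genes, 23 were higher and 18 lower, with a median of 0.0026 and a range from −0.65 to 0.18. The 3 stalk genes had fold changes of −0.06 (*Rplp1*), −0.05 (*Rplp0*) and 0.03 (*Rplp2*). The 9 paralogs and other symbols that were tested had a median of −0.09, with 6 lower and 3 higher. None of these 4 groups held a gene with an adjusted p-value under 0.25 in edgeR's test.

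*Rpl37rt* had the smallest p-value. GENCODE M21 lists it as a transcribed processed pseudogene, a retrocopy of *Rpl37*, on chromosome 5 of GRCm38 from 115102923 to 115110268. It was at 395, 364 and 370.4 CPM in the wild type mice and at 307, 325, 269 and 328 CPM in the knockout mice. All knockout mice thus lay below all wild type mice, at a log2 fold change of −0.29 (SE 0.13, unadjusted p = 0.032, adjusted p = 0.999 in edgeR's test). Of 226 stretches of 75 bases at its 3′ end, 151 are also in *Rpl37*. *Rpl37* itself was at 2679, 1877 and 2536 CPM in wild type and at 2638, 2691, 2025 and 2610.2 CPM in knockout cells, so that the groups overlapped. *Rpl37rt* kept its sign under all 17 alternatives, with log2 fold changes from −0.33 to −0.23, and its unadjusted p-value was no longer under 0.05 when single mice were left out (wild type mouse 1 or 3, knockout mouse 1 or 3), with the replicate block and with library size alone.

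A lack of overlap between the genotypes was seen for 3 of the 83 members, against 5.16% of all genes. Besides *Rpl37rt* these were *Rpl18* and *Rpl38*, both of the large subunit and both higher in knockout cells. *Rpl38*, which is known from mouse mutants with skeletal defects, was at 1074, 1065 and 1003 CPM in wild type and at 1099, 1133, 1079 and 1212 CPM in knockout mice (log2 fold change 0.11, SE 0.12, adjusted p = 0.999 in edgeR's test). *Rpl18* was at 343 ± 18.6 CPM (SD, n = 3) and 370.3 ± 9.53 CPM (SD, n = 4), with a log2 fold change of 0.11. Among the members with the smallest p-values, *Rpl13* (0.18) and *Rps28* (0.11) also had positive log2 fold changes, and *Rpl7l1* (−0.25), *Rpl17* (−0.23), *Rpl19* (−0.15) and *Rpl30* (−0.65) negative ones, all with overlapping groups. For *Rpl7l1*, a paralog of *Rpl7* that acts in ribosome assembly, the levels were 114 ± 14.0 CPM (SD, n = 3) and 95.7 ± 9.89 CPM (SD, n = 4). Without wild type mouse 3 the fold changes of *Rpl13* and *Rpl30* changed sign (−0.0031 and 0.046).

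Genes of ribosomopathies of the marrow were examined as a list, mostly those of Diamond-Blackfan anemia, with *Rps14*, the gene of the 5q- syndrome, among them. Of its 18 genes, 16 were tested, 8 of them higher and 8 lower in knockout cells, with log2 fold changes from −0.07 to 0.11. *Rps19*, the gene most often mutated in Diamond-Blackfan anemia, was at 1243, 843 and 1208 CPM in wild type and at 1196, 1252, 1000.2 and 1101 CPM in knockout cells. The products of *Rpl5* and *Rpl11* bind MDM2 when ribosome assembly fails and so stabilize p53. *Rpl5* was at 340.5 to 452 CPM in wild type and at 309 to 484 CPM in knockout mice (log2 fold change −0.03, SE 0.16). *Rpl11* was at 1267 to 1554 CPM and at 1361 to 1621 CPM (0.09, SE 0.13). The 7 members of a list with known partners outside the ribosome, among them *Rpl5*, *Rpl11*, *Rpl23*, *Rps3* and *Rpsa*, ranged from −0.09 to 0.10, and none passed edgeR's test.

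Within paralog pairs the copies were counted at unequal levels. *Rpl3* was at 861 CPM and its muscle paralog *Rpl3l* at 2.27 CPM on average. *Rpl22*, an RNA-binding protein of the large subunit, was at 1158 CPM, and its paralog *Rpl22l1* at 241 CPM, with log2 fold changes between genotypes of −0.01 and −0.09. *Rps4x* was at 728 CPM and the retrocopy *Rps4l* at 27.7 CPM, *Rpl39* at 1113 CPM and *Rpl39l* at 0.579 CPM. *Rpl36a* and *Rpl36al*, which encode nearly the same protein, were at 1701 and 192 CPM. *Rps27* and *Rps27l* were at 0.781 and 184 CPM. Since many of these genes share stretches with other genes, the counts do not settle which copy the cells used. Of the 17 genes in these pairs, 13 were tested and none passed edgeR's test, with 6 higher and 7 lower. Outside the naming pattern, *Fau*, which encodes a ribosomal protein fused to a ubiquitin-like protein, had a log2 fold change of −0.02, and *Rack1*, a scaffold on the small subunit, of −0.01, both without a call.

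The 86 members are spread over 19 chromosomes, 14 of them on chromosome 7 and 8 on chromosome 17, which holds *Hdgfl2*. *Rpl36*, on chromosome 17 of GRCm38 from 56613416 to 56614243, lies 512808 bases from *Hdgfl2*. Its levels were 283, 207 and 222 CPM in wild type and 224, 262, 167 and 303 CPM in knockout cells, with a log2 fold change of 0.01 (SE 0.18).

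Summed over the members, the ribosomal protein genes took 9.91%, 8.97% and 9.56% of the reads on genes in the wild type mice and 10.6%, 9.63%, 9.24% and 8.86% in the knockout mice. The means were 9.48% ± 0.475 (SD, n = 3) and 9.58% ± 0.748 (SD, n = 4), and the groups overlapped. The *Rn45s* share of the same reads was 11.8%, 20.6% and 9.43% in wild type and 4.94%, 9.21%, 13.6% and 18.6% in knockout mice (exact permutation over mice, two-sided, p = 0.571). The mice with a high *Rn45s* share had a low member share. Pearson's r over the 7 mice was −0.895 and Spearman's rho −0.857, and r was −0.818 without wild type mouse 2 and knockout mouse 1, the mice farthest from the median. Both shares have the same denominator. With *Rn45s* taken out of the total, the member share was 11.2%, 11.3% and 10.6% in wild type and 11.1%, 10.6%, 10.7% and 10.9% in knockout mice, r was 0.271 and rho 0.429. The sum of the members as a share of the other reads thus lay between 10.6% and 11.3%, while the *Rn45s* share lay between 4.94% and 20.6%. The ratio of the summed CPM of the small subunit to that of the large subunit with the stalk was between 0.984 and 1.07 in all mice, highest in knockout mouse 3.

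**Figure D3:**
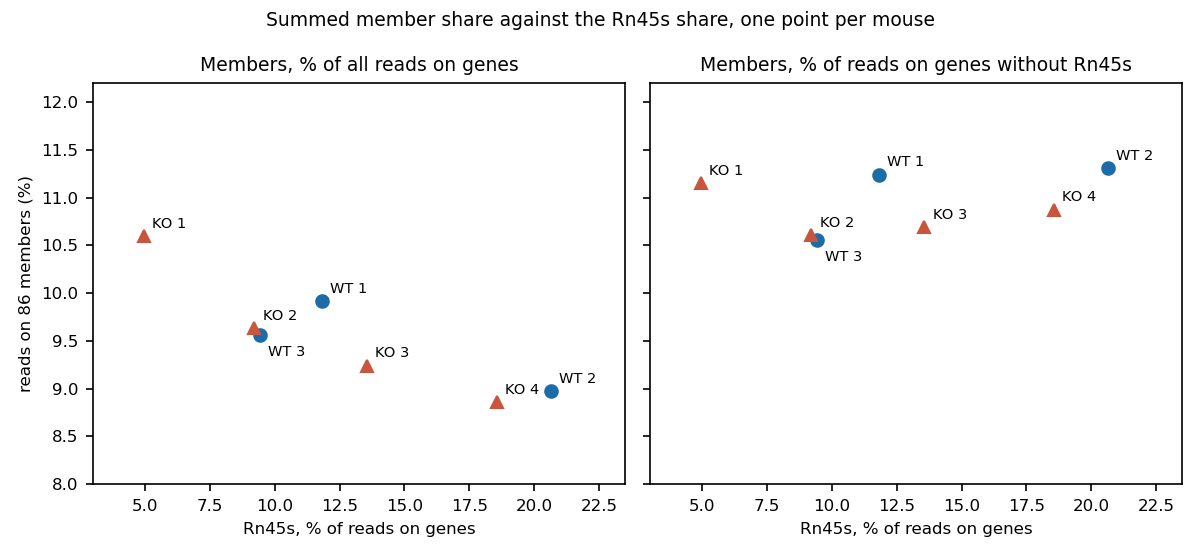
Reads on the 86 members as a percentage of all reads on genes (left) and of reads on genes without *Rn45s* (right) against the *Rn45s* share, 1 point per mouse, circles for wild type and triangles for knockout; the y axis starts at 8%. The points fall from 10.6% to 8.86% on the left and stay between 10.6% and 11.3% on the right.

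Below this steady sum, single members differed between mice in opposite directions. The ratio of the highest to the lowest mouse had a median of 1.41 over the members tested, was under 1.5 for 52 of them and over 2 for 8. The median SD of log2(CPM + 1) over the wild type mice was 0.215 for the members, 0.252 for all genes tested, and 0.17 for the 1841 other genes with at least 100 CPM. A model with genotype and the *Rn45s* share as terms was fitted to all genes to describe the part of this variation that goes with *Rn45s*. The slope, the change of log2 CPM per 10 percentage points of *Rn45s* share, passed an adjusted p-value of 0.25 in edgeR's quasi-likelihood test for 6 of the 83 members, against 547 of all genes (4.86%). Of these, 5 members had a negative slope, against 2.44% of all genes, and 1 a positive slope, against 2.41%. At an unadjusted p-value below 0.05 there were 22 members, against 12.9% of all genes. Slopes past an adjusted p-value of 0.25 were also found for 6 of 77 mitochondrial ribosomal proteins and 11 of 96 ribosome assembly factors. None of the members passed 0.05 after adjustment in this fit (0.0621% of all genes did). All 5 members with a called negative slope passed it with library size alone. Some of them also did under other alternatives, such as without a filter on low counts or without knockout mouse 4. The share of all genes past 0.05 in those fits is not given here. Their share past 0.25 was 20.9%, 5.6% and 12% in these 3 fits, against 4.86% in the main fit. With library size alone *Rn45s* stays in the total, so a higher *Rn45s* share by itself lowers the CPM of the other genes. For 3 of the 10 lists of cell type markers all genes tested had slopes of one sign, where 5692 of all 11265 genes had a positive slope. The slope was positive for 10 of 10 erythroid markers tested (median 0.86) and for 8 of 8 megakaryocyte and platelet markers (median 1.62), and negative for 11 of 11 T and NK cell markers (median −0.30). The other 7 lists held both signs, from 3 positive and 9 negative slopes (eosinophil, basophil and mast cells) to 10 positive and 1 negative (B lymphoid cells). In each of the first 3 lists 1 gene passed an adjusted p-value of 0.25 in edgeR's test, among the erythroid genes *Car2* (adjusted p = 0.0273). The part of these cells in the slopes of the members was not tested.

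*Rps25*, a small subunit protein used in translation from internal ribosome entry sites, had the smallest p-value, with a slope of −0.47 (SE 0.14, adjusted p = 0.164 in edgeR's test). Its levels were 977, 634 and 1058 CPM in wild type and 1152, 1071, 655 and 909.9 CPM in knockout mice. Wild type mouse 2 and knockout mouse 3 were thus the lowest, and knockout mouse 4, with the second highest *Rn45s* share, was nearer to the others. *Rps16* had a slope of −0.41, *Rpl35* of −0.40, *Rpl6* of −0.38 and *Rps7*, one of the Diamond-Blackfan genes, of −0.35, with adjusted p-values from 0.209 to 0.223 in the same edgeR test. *Rps16* was at 808, 530.3 and 889 CPM in wild type and 822, 863, 548 and 721 CPM in knockout mice. *Rpl6* was at 559, 336 and 483 CPM and at 526, 548, 445 and 431 CPM, lowest in wild type mouse 2. The positive slope, 0.34 (adjusted p = 0.210 in edgeR's test), was that of *Rpl35a*, another Diamond-Blackfan gene, with 961, 1153 and 788 CPM in wild type and 808, 863, 1082 and 1006 CPM in knockout mice. Over all members 42 slopes were positive and 41 negative, with a median of 0.0047. *Rack1*, outside the pattern, also had a positive slope, 0.48 (adjusted p = 0.131 in edgeR's test), with its highest levels in wild type mouse 2, 4682 CPM, and knockout mouse 3, 4356 CPM.

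**Figure D4:**
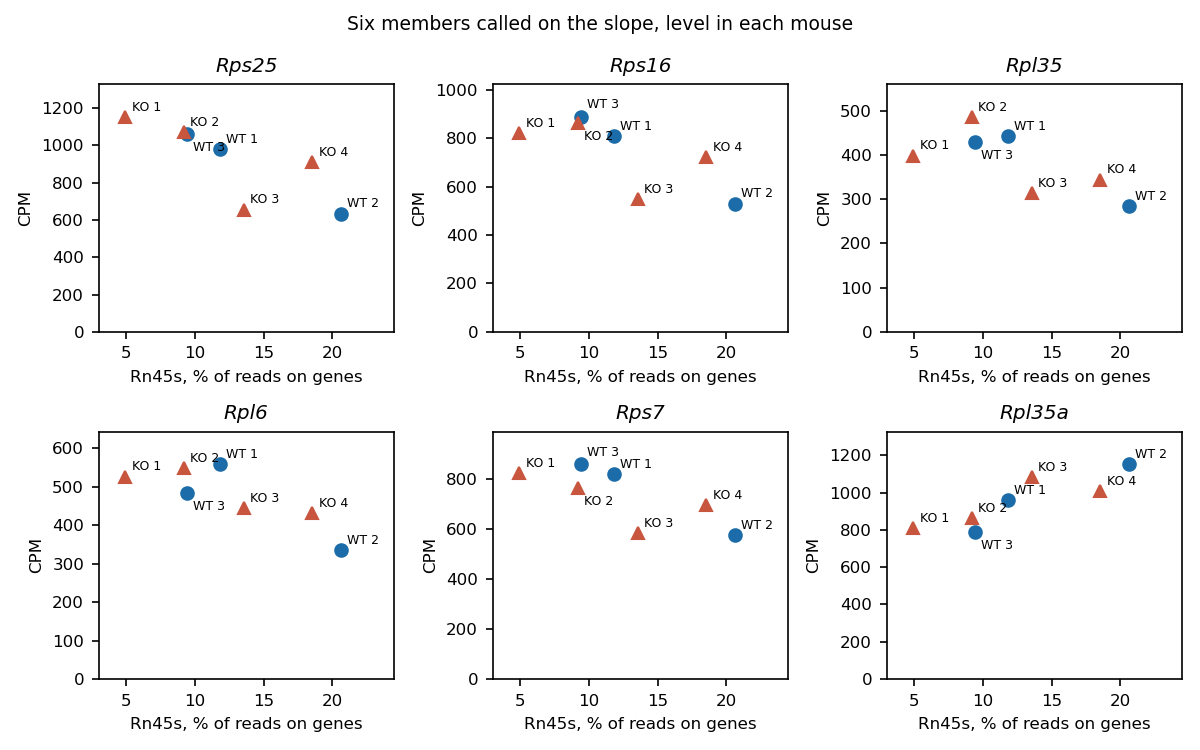
CPM of the 6 members called on the slope against the *Rn45s* share, 1 point per mouse, circles for wild type and triangles for knockout. Wild type mouse 2 and knockout mouse 3 are the 2 lowest points for *Rps25*, *Rps16*, *Rpl35* and *Rps7* and the 2 highest for *Rpl35a*.

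The number of calls depended on single mice. Without wild type mouse 2, wild type mouse 3 or knockout mouse 2, none of the members passed the slope test, against 0.346%, 0.33% and 1.42% of all genes in the same fits. Without wild type mouse 1 there were 2 members (2.43% of all genes), and without knockout mouse 1 also 2 (2.14% of all genes). Without knockout mouse 3 there were 10 of 83 (5.34% of all genes), and without knockout mouse 4 there were 31 of 82 (12% of all genes). DESeq2 called 20 of the 80 members to which it gave an adjusted p-value, and 11.1% of all genes. The calls over all genes thus changed with the same mice. The sign of the slope of each of the 6 members was the same under the 15 alternatives run.

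The order of the mice was then counted over all members, a description chosen after the values had been seen. Of the 21 pairs of mice, wild type mouse 2 and knockout mouse 3 most often held both ends of the order. They were the 2 lowest mice for 25 of the 83 members and the 2 highest for 15, together 48.2%, where the figure was 19.9% for all genes tested and 32.0% for the other genes with at least 100 CPM. The 25 comprised 9 small subunit genes, 15 large subunit genes and *Rps27l*, and the 15 comprised 8 small and 7 large subunit genes, so that neither subunit moved as a whole. *Rps19* was at 843 to 1000.2 CPM in these 2 mice and at 1101 to 1252 CPM in the other 5, and *Rpl37* at 1877 to 2025 CPM and at 2536 to 2691 CPM. In the other direction, *Rps26* was at 2030.2 to 2035 CPM in these 2 mice and at 1366 to 1592 CPM in the other 5, and *Rps24*, a protein of the small subunit with tissue-dependent splicing, at 4467 to 4729 CPM and at 3112 to 3795 CPM. The next pair was wild type mouse 3 and knockout mouse 2, with 25 members (30.1%, against 11.8% of all genes and 14.6% of the other genes with at least 100 CPM). The mice of each pair differ in genotype, and the *Rn45s* shares were 20.6% and 13.6% in the first pair and 9.43% and 9.21% in the second. Knockout mouse 3 is also the mouse set apart by its sex-linked genes and neutrophil markers, and the part of these in the order was not tested.

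**Figure D5:**
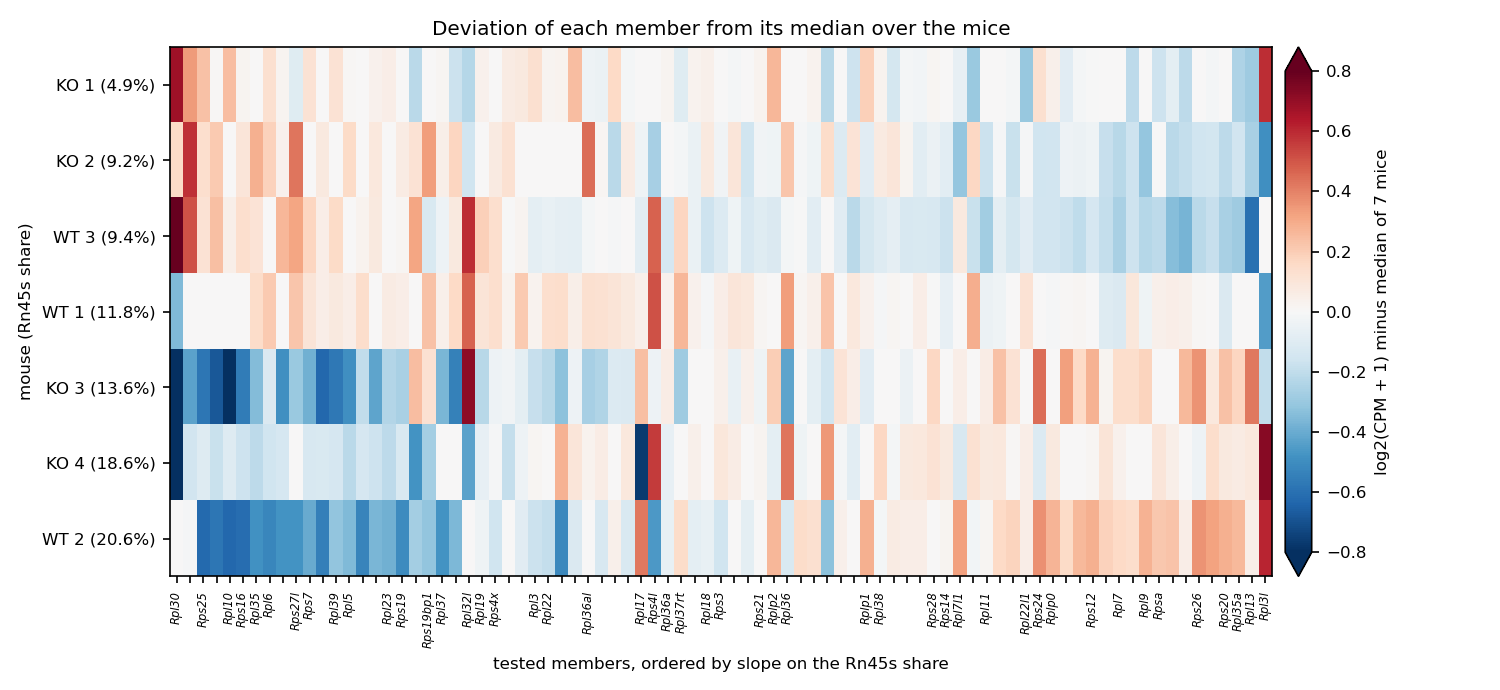
Deviation of log2(CPM + 1) of each of the 83 members from its median over the 7 mice (color, cut at ±0.8), with mice in rows by increasing *Rn45s* share and members in columns by increasing slope (labelled where the text describes them). The rows of wild type mouse 2 and knockout mouse 3 are blue on the left and mostly red on the right, and the row of knockout mouse 4 is paler although its *Rn45s* share is 18.6%.

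The starts of the genes were compared for the pyrimidine tract. RefSeq promoter sequences (GRCm38.p6) matched 65 of the 86 members. A start at C followed by at least 4 pyrimidines (C or T) on the coding strand was found at a RefSeq start of 14 of these 65 (21.5%), against 813 of 27025 genes (3.01%) and none of 68 mitochondrial ribosomal protein genes. A run of 7 pyrimidines within 10 bases before and 20 bases after the start was found for 34 members (52.3%), against 20.5% of all genes. Both searches read the strand of the gene alone, and a start may meet both. Of the 5 members with a called negative slope, 1 met the first search, *Rpl35*, and *Rpl35a*, with the positive slope, met it at 1 of its 3 RefSeq starts. The 25 bases around the start, from 10 before it, are shown for the 6 members with a called slope, so that the starts on both sides of the slope can be compared, with the unbroken pyrimidine run through the first transcribed base in capitals (GRCm38.p6, for *Rpl35a* the RefSeq start that meets the search).
*Rps25*, chr9:44407704-44407728, plus strand: ccgacatcttagcgaggctgctgtg
*Rps16*, chr7:28350679-28350703, plus strand: ttctgtcgtgacgtagcactcaatg
*Rpl35*, chr2:39005117-39005141, minus strand: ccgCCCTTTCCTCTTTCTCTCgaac
*Rpl6*, chr5:121204491-121204515, plus strand: acctcccgtcattgcttatagaccg
*Rps7*, chr12:28635939-28635963, minus strand: cggtttccaCCCacctacttccgct
*Rpl35a*, chr16:33056472-33056496, plus strand: gcttgCCTTCCTCTTTCCgccatct
The start of *Rpl35* lies in a run of 18 pyrimidines. The *Rpl35a* start shown lies in a run of 13, with runs of 4 and 0 at its other RefSeq starts. The first bases of *Rps25*, *Rps16* and *Rpl6* in RefSeq are purines. The libraries read the 3′ end, so the starts used in these cells were not measured. Over the 83 members the slope had a Spearman's rho of 0.15 with the GC content of the last 300 bases, −0.014 with transcript length and 0.31 with mean level. These are correlations across genes of the same 7 libraries, and genes are not independent replicates.

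The machinery around the ribosome was compared by lists. Of 77 mitochondrial ribosomal proteins, 42 were higher and 35 lower in knockout cells, with a median log2 fold change of 0.0088, and none passed an adjusted p-value of 0.25 in edgeR's test. They summed to 4118 to 4495 CPM in wild type and to 4097 to 4460.4 CPM in knockout mice. Of 96 assembly factors, 66 were higher and 30 lower (49.8% of all genes were higher), with a median of 0.08 and again no call. *Mrto4*, a placeholder for *Rplp0* during assembly, was at 55.1, 94.6 and 53.4 CPM in wild type and at 73.1, 68.8, 135 and 102 CPM in knockout mice (log2 fold change 0.49, SE 0.26). *Mybbp1a* had a log2 fold change of 0.27, *Utp15* of −0.33 and *Nol9* of −0.29. Among 15 genes of the RNA polymerase I machinery the median was 0.03. *Tcof1*, a cofactor of that polymerase, was at 109 to 129.7 CPM in wild type and 127 to 145 CPM in knockout mice, and *Ubtf*, which keeps ribosomal DNA active, had a log2 fold change of −0.14 (SE 0.16).

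A list of 18 other genes with such pyrimidine tracts, mostly translation factors, had a median log2 fold change of −0.00077, with 8 higher and 10 lower. *Eif3f* (0.11), *Eef1g* (−0.10) and *Eif3m* (−0.16) were near 0, and *Vim*, the intermediate filament vimentin, was at 481, 347 and 477 CPM in wild type and at 556, 552, 465 and 557 CPM in knockout mice (0.29, SE 0.14). Of 10 host genes of small nucleolar RNAs, 8 were lower and 2 higher, with a median of −0.09, *Snhg6* (−0.42) and *Zfas1* (−0.14) leading the lower ones. The 19 regulators of these messages, such as the mTOR complex, had a median of 0.04. *Mlst8*, an mTOR subunit, had a log2 fold change of 0.27, *Akt1s1* of 0.93 at a mean under 5 CPM in both genotypes, *Tia1* of −0.16 and *Tsc1* of −0.21. Of 13 sensors of ribosome stress and p53 targets, 11 were higher and 2 lower, with a median of 0.09. *Bbc3*, a p53 target that promotes apoptosis, was at 19.7, 14.3 and 14.6 CPM in wild type and at 21.4, 30.8, 15.5 and 38.6 CPM in knockout mice (log2 fold change 0.70, SE 0.29, unadjusted p = 0.0256, adjusted p = 0.999 in edgeR's test). *Cdkn1a*, the p53 target p21, had a log2 fold change of 0.45 (SE 0.23). *Myc*, which drives ribosome production, was at 40.4, 50.1 and 73.3 CPM in wild type and at 51.3, 58.8, 37.6 and 41.9 CPM in knockout mice. Of the 8 genes of the MYC family, 3 were higher and 5 lower. No gene of these 8 lists passed an adjusted p-value of 0.25 in edgeR's test. *Bbc3* was the gene with an unadjusted p-value under 0.05, which 3.63% of all genes tested had. By sign, 49.8% of all genes were higher in knockout cells.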

How the data were processed

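RNA of lin- bone marrow cells from 3 wild type and 4 knockout mice was sequenced as 75 bp single reads of 3′ end libraries. The authors aligned the reads to GRCm38 with STAR 2.4.2a, which they also name for quantifying genes on Ensembl version 84, and deposited whole-number counts of reads per gene symbol, without normalization. The files carry tally rows in the layout of htseq-count, and which tool counted these files was not settled here. The strand setting and the treatment of reads with several matches are not given in the sources used here. The 5 tally rows of each file were left out of library sizes. Reads on no gene were 27.0% to 31.6% of the reads and ambiguous reads 1.99% to 2.40%.

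The counts were scaled and tested with edgeR 4.0.16 in R 4.3.3 (TMM factors, filterByExpr, quasi-likelihood test with robust estimation, Benjamini-Hochberg adjustment over 11265 genes). A fit with the *Rn45s* share as a covariate gave the slope, whose own alternatives were added after the data had been seen. DESeq2 1.42.0, limma-voom (limma 3.58.1), other scaling factors and filters, the replicate number as a block, and the omission of *Rn45s* or of each mouse in turn were alternatives. The tests were tested on simulated data. Members, gene lists and tests were chosen with earlier results of these data known. Named genes are *Hdgfl2* and *Rn45s*, members with a call, the 5 with the smallest p-value in each direction, the 5 highest and 5 lowest in level, members of the stalk, paralog, ribosomopathy and partner lists, *Fau* and *Rack1*, members with a knockout mouse far from the rest, and 2 genes per direction of each other list. Members with a called slope and those given as examples of the order of the mice were chosen after their values were seen. Some genes that this rule names are not reported here. Annotation was GENCODE M21 on GRCm38, and promoters were from RefSeq. Nothing in the labels pairs mice of the same number, the mean correlation of their deviations was −0.133, and p-values measure the spread between these mice.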

Additional observations from a re-analysis of the deposited data

Results flagged for a closer look

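Each member tested, the totals, *Hdgfl2* and ribosomal proteins outside the naming pattern were checked for a knockout mouse far from the other 3, a check that chance meets for about 1 in 20 groups. Of 92 values checked, 4 met it, each time with knockout mouse 3 as the distant one. *Rpl22* was at 1020.2 CPM in that mouse and at 1191 to 1209 CPM in the other 3. *Rpl37* was at 2025 CPM there and at 2610.2 to 2691 CPM in the others. *Rps12* was higher, at 645 CPM against 518 to 537 CPM. The retrocopy *Rpl32l*, which GENCODE M21 lists as a processed pseudogene, was at 6.17 CPM against 2.24 to 2.91 CPM, on 126 reads over all mice. For *Rpl22*, *Rpl37* and *Rps12*, wild type mouse 2 lay on the same side as knockout mouse 3. The cause was not tested.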

How the results depend on the processing

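None of the cytosolic ribosomal protein genes was called between genotypes under any of the 17 alternatives, and their median log2 fold change stayed between −0.018 and 0.032. The count of called genes over all genes, 2, became 18 with DESeq2, 41 without a filter on low counts, 1 with at least 10 reads in every mouse, 8 with the *Rn45s* share as a covariate, and 2 to 7 when single mice were left out. With the replicate number as a block it was 1, and the block changed no call of a member. The correlations of same-numbered mice were −0.0249, −0.215 and −0.160, and 0 of the wild type mice correlated best with their own number. Without single mice the fold change of *Rpl13* ranged from −0.0031 to 0.29 and that of *Rpl30* from −1.24 to 0.046, both reversed without wild type mouse 3. The difference in *Rn45s* share, −2.39 percentage points, ranged from −4.72 to 0.950 without single mice, reversed without wild type mouse 2. The difference between genotypes in the summed member share, 0.0987 percentage points, ranged from −0.240 to 0.340 without single mice and was −0.204 with *Rn45s* out of the total. The alternatives for the slope were added after the data had been seen. The called members, 6, became 20 with DESeq2, 30 with library size alone, 20 without a filter, 10 with at least 10 reads in every mouse, and 0 to 31 without single mice. Over all genes the 547 calls (4.86%) became 688 (11.1%) with DESeq2, 2355 (20.9%) with library size alone, 917 (5.6%) without a filter, 659 (6.65%) with at least 10 reads in every mouse, and 38 (0.33%) to 1334 (12%) without single mice. The causes were not tested. At this depth a member with under 130 reads, such as *Rpl30*, carries an interval of more than 1 log2 unit on either side.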

Other observations

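Symbols that name ribosomal protein pseudogenes (-ps) were outside the members. Their reads summed to 1923, 1949 and 1245 in the wild type mice and to 1950, 1965, 3094 and 1692 in the knockout mice. Most of them were on *Rpl14-ps1*, with 1128 to 1655 reads in wild type and 1359 to 2857 in knockout mice, the highest count again in knockout mouse 3. These reads are not scaled to library size, and knockout mouse 3 also had the most reads on genes (5605158).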
